A study of Mus musculus with 12 samples.

Results

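The 35 genes described here encode the glucose transporters and enzymes of glycolysis, the enzymes and carriers that handle pyruvate, the enzymes of the pentose phosphate pathway, and the transcription factors HIF-1 alpha and MYC. They were chosen by gene name from a count table of 54532 entries, as 19 genes of glucose uptake and glycolysis through lactate dehydrogenase, 7 pyruvate genes, 7 pentose phosphate genes and the factor genes Hif1a and Myc. All 35 passed the filter on low counts and were among the 13393 genes tested. RNA came from 4 subsets of CD4 T cells sorted from a mix of spleen and lymph node, with 3 libraries of each subset. The mice were wildtype C57BL/6 Foxp3-GFP polyclonal animals and had no treatment. The Anergic subset was CD44high FOXP3–, CD73high, FR4high and NRP1+, and anergic cells are antigen-experienced T cells that respond poorly when stimulated again. The Treg subset, regulatory T cells, was FOXP3+ CD25+. The Teff subset, effector cells, was CD44high and FOXP3– with low CD73 and low FR4, and the Naive subset was CD44low. The cells were freshly isolated. The labels do not say whether libraries of a subset came from separate mice or from pooled mice, so the p-values measure the spread between these libraries.

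Glycolysis splits glucose into pyruvate in a chain of enzymes in the cytosol and yields ATP. Pyruvate is then reduced to lactate by lactate dehydrogenase, or enters mitochondria through a carrier and is oxidised by the pyruvate dehydrogenase complex, which pyruvate dehydrogenase kinases switch off. The pentose phosphate pathway branches off after hexokinase and supplies NADPH and ribose phosphate. In T cells glucose uptake and glycolysis increase when a cell is activated and grows, MYC and HIF-1 are known to raise transcription of many of these genes, and Treg cells are known to rely more on oxidation in mitochondria than effector cells do.

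Libraries held 6909035 to 9527897 counts, of which 11 abundant ribosomal, small RNA and related entries took 18.5% to 30.1%, with the highest share in Anergic library 3. Levels are given in CPM, the count of a gene relative to the library size after scaling by TMM. The sort markers followed the labels. Il2ra, which encodes CD25, averaged 15.3 CPM in Anergic cells, 710 CPM in Treg cells, 44.5 CPM in Teff cells and 2.21 CPM in Naive cells. Cd4, expressed in all subsets, averaged 1222 CPM in Anergic cells, 466.5 CPM in Treg cells, 653 CPM in Teff cells and 676.5 CPM in Naive cells. Cd44 averaged 334 CPM in Anergic cells, 117 CPM in Treg cells, 295 CPM in Teff cells and 35.3 CPM in Naive cells. Foxp3, which defines Treg cells, averaged 18.2 CPM in Anergic cells, 543 CPM in Treg cells, 0.735 CPM in Teff cells and 1.35 CPM in Naive cells, so it was not at 0 in Anergic cells. Nt5e, which encodes CD73, averaged 256 CPM in Anergic cells, 184 CPM in Treg cells, 57.5 CPM in Teff cells and 19.4 CPM in Naive cells. Izumo1r, which encodes FR4, averaged 424 CPM in Anergic cells, 309.5 CPM in Treg cells, 73.8 CPM in Teff cells and 49.8 CPM in Naive cells. Nrp1 averaged 333 CPM in Anergic cells, 253 CPM in Treg cells, 62.8 CPM in Teff cells and 3.46 CPM in Naive cells. All 3 were highest in Anergic and next highest in Treg cells. The summed level of 11 T cell genes was 4319 to 4497 CPM in Anergic, 3359 to 3616 CPM in Treg, 3210 to 3628 CPM in Teff and 3371 to 3814 CPM in Naive libraries. Markers of other cells also differed between subsets. The sum of 7 NK and innate-like T cell genes was 23.5 to 35.3 CPM in Anergic, 0.941 to 1.415 CPM in Treg, 171 to 235 CPM in Teff and 3.45 to 5.7 CPM in Naive libraries, and the sum of 6 B cell genes was 192 to 253 CPM in Anergic, 406 to 496 CPM in Treg, 171 to 181 CPM in Teff and 198 to 226 CPM in Naive libraries. Ncr1 and Klre1, both among these NK and innate-like T cell genes, were at 0 in all Anergic and Treg libraries, and Klra1 was at 0 in all Treg libraries. The sum of 2 CD8 T cell genes was 5.06 to 5.87 CPM in Anergic, 9.88 to 11.8 CPM in Treg, 3.71 to 6.25 CPM in Teff and 12.6 to 17.1 CPM in Naive libraries. The sum of 6 stromal and endothelial genes was 127 to 148 CPM in Anergic, 149 to 167 CPM in Treg, 109 to 111 CPM in Teff and 207.5 to 219 CPM in Naive libraries, so it was highest in Naive libraries. Only 1 of these 6 genes passed the filter on low counts, so the sum rests mainly on that gene. Col3a1 and Kdr were at 0 in all Naive libraries. The sum of 4 plasma cell genes was 49 to 52.1 CPM in Anergic, 51.6 to 52.7 CPM in Treg, 42.2 to 48.1 CPM in Teff and 31.35 to 33.7 CPM in Naive libraries, so it was lowest in Naive libraries. Sums of 8 myeloid genes were 5.19 to 9.06 CPM in Anergic, 3.88 to 6.97 CPM in Treg, 10.2 to 10.4 CPM in Teff and 3.585 to 5.31 CPM in Naive libraries, and 5 erythroid genes summed to at most 0.911 CPM in any library. The filter on low counts was passed by 1 of the 2 CD8 T cell genes and 3 of the 6 B cell genes. It was also passed by 2 of the 4 plasma cell genes and 3 of the 8 myeloid genes, so these sums too rest on few genes. The part of other cell types in the results was not tested. In sorted pools of cells, fewer cells that express a gene and less RNA per cell cannot be told apart.

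In Anergic cells Hif1a, Hk1 and Pfkfb3 were higher, and Slc2a1, Slc2a3, Eno1, Ldha, Pdk1 and Myc were lower, than in each of the other 3 subsets. Some of these calls were lost in alternative settings, as given below for each gene. Hk2, the inducible hexokinase, was higher in Anergic, Treg and Teff cells than in Naive cells, and Pdk1, which restrains the entry of pyruvate into mitochondrial oxidation, was lower in all 3 than in Naive cells. Each comparison used edgeR's quasi-likelihood F test over all 12 libraries, and a gene is called higher or lower where its two-sided Benjamini-Hochberg adjusted p over all 13393 genes is under 0.05. Against Treg cells, Anergic cells had 6 of the 35 genes higher and 9 lower, while 15.6% and 15.3% of all tested genes were called in these directions. Against Teff cells, 4 were higher and 9 lower in Anergic cells, beside 13.9% and 12.7% of all genes. Against Naive cells, 11 were higher and 9 lower in Anergic cells, beside 25% and 21.3%. Treg cells had 9 higher and 5 lower than Teff cells, beside 15% and 14.1%, and 11 higher and 2 lower than Naive cells, beside 19% and 13.9%. Teff cells had 11 higher and 5 lower than Naive cells, beside 19.2% and 15.7%. The called share of the 35 genes was 42.9%, 37.1%, 57.1%, 40%, 37.1% and 45.7% in this order of comparisons, beside 31%, 26.6%, 46.2%, 29.1%, 32.8% and 34.9% of all tested genes. In the same order, the median absolute log2 fold change of the 35 genes was 0.28, 0.16, 0.27, 0.19, 0.17 and 0.23. That of all tested genes was 0.25, 0.23, 0.36, 0.24, 0.26 and 0.28. The 35 genes had the larger median only for Anergic against Treg cells. Without Anergic library 2, 2 were higher in Anergic than in Teff cells. Without Teff library 2 or Treg library 3, 3 were lower in Treg than in Teff cells, and without Naive library 1, 4 were lower in Treg than in Naive cells. The comparisons share libraries and are not independent of each other.

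The median log2 fold change of the 35 genes lay close to 0 in every comparison, from -0.03 for Anergic against Teff cells to 0.09 for Teff against Naive cells, and that of all tested genes lay from 0.0 to 0.008. Calls ran in both directions in each comparison. The 33 enzyme, carrier and transporter genes together summed to 2423 ± 77 CPM in Anergic cells, 2476 ± 33.6 CPM in Treg cells, 2532 ± 96.8 CPM in Teff cells and 2507 ± 72.8 CPM in Naive cells (SD, n = 3 each). Hif1a, Myc, Slc2a3, Ldhb and Pdk1 were called in all 6 comparisons, and Hk1, Pfkfb3, Aldoa and Eno1 in 5. Pfkl, Pfkm, Pkm, Pdhb, Dlat, Dld, Mpc1, Mpc2, G6pdx, Pgls, Rpia and Rpe were called in none. The number of comparisons called was not counted for all tested genes, so these groups have no background share beside them. Anergic cells had the highest mean of the 4 subsets for 11 genes and the lowest for 13. Scaling by total counts alone changed how many calls went each way. With it Anergic cells had 4 of the genes higher and 13 lower than Treg cells, and 2 higher and 10 lower than Teff cells. Of all called genes, 30.4% against 50.5% with TMM were then higher in Anergic than in Treg cells, 34.9% against 52.3% were higher in Anergic than in Teff cells and 72.2% against 57.7% were higher in Treg than in Naive cells.

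**Figure D1:**
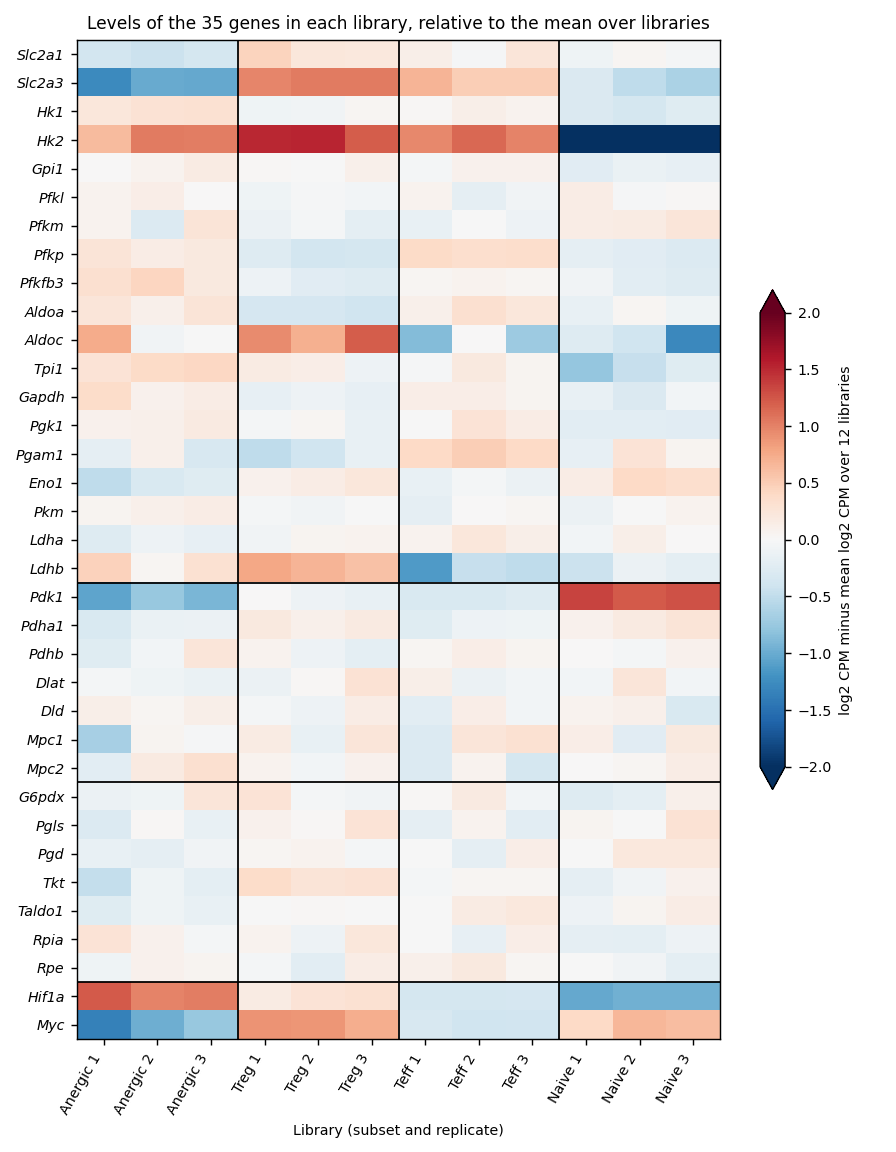
Each row is 1 of the 35 genes and each column 1 library, in the order Anergic, Treg, Teff and Naive, and colour is log2 CPM minus the mean of that gene over the 12 libraries, with values beyond 2 in either direction drawn at the end of the scale. Black lines part the subsets and the glycolysis, pyruvate, pentose phosphate and factor genes. Hk2 is lowest in the Naive libraries, Pdk1 is highest there, Slc2a3 and Myc are lowest in the Anergic libraries, and most rows of the pyruvate and pentose phosphate genes are near white.

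Promoter sequences are shown for Hif1a, Ldhb and Pdk1, the genes with a sequence at hand that were called in at least 4 comparisons with at least a 2-fold difference in 1 or more, since both HIF-1 and MYC can bind promoters of this pathway. Each is the 250 bases before the annotated transcription start from RefSeq (GRCm38.p6), 5′ to 3′ on the strand of the gene, with matches to the motifs searched in capitals. The motifs were the core of the HIF response element, ACGTG or GCGTG, the MYC E-box CACGTG, which contains ACGTG, and the AP-1 site TGANTCA, each on both strands. The windows lie at chr12:73907617-73907866 on the + strand for Hif1a, at chr6:142507958-142508207 on the - strand for Ldhb and at chr2:71872974-71873223 on the + strand for Pdk1.
Hif1a: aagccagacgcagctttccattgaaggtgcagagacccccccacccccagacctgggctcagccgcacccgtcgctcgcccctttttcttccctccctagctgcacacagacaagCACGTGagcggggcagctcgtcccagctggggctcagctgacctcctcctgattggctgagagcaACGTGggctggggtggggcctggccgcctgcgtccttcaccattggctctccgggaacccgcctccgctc
Ldhb: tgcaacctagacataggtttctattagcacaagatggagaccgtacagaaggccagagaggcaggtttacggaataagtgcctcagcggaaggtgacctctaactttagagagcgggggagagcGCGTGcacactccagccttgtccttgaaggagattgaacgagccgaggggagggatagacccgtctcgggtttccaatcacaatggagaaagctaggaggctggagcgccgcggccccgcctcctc
Pdk1: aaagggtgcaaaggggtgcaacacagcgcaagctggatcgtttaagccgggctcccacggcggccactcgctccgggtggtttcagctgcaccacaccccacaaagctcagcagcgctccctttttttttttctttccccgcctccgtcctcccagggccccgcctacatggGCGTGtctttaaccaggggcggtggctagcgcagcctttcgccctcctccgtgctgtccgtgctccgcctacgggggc
The Hif1a window held an E-box that starts 135 bases before the transcription start and a further HIF core at 70 bases. The Ldhb window held a HIF core at 126 bases and the Pdk1 window held another at 78 bases. Of the 35 genes, 33 had a window in the table, all but Slc2a3 and Myc. A HIF core was found in 25 of the 33 (75.8%), beside 43.9% of 17491 windows of protein-coding genes and 38.6% of all 32817 windows of the same length. An E-box was found in 3 of the 33 (9.09%), in Pfkm, Ldha and Hif1a, beside 6.65% of protein-coding and 6.02% of all windows. None of the 33 held the AP-1 site, beside 6.18% and 6.75%. A match is a string of letters and does not show binding.

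The factor genes Hif1a and Myc ran in different orders across the subsets. Hif1a, which encodes the oxygen-regulated subunit of HIF-1, had 490.3, 416 and 427 CPM in Anergic libraries and 235, 254 and 259.7 CPM in Treg libraries. It had 165, 164 and 165 CPM in Teff libraries and 104, 108 and 108 CPM in Naive libraries. All Anergic libraries lay above all Treg libraries, these above all Teff libraries, and these above all Naive libraries. In Anergic cells Hif1a was 1.78-fold higher than in Treg cells (log2 0.83 ± 0.0664 SE, adjusted p = 4.86e-10), 2.7-fold higher than in Teff cells (log2 1.43 ± 0.068 SE, adjusted p = 4.54e-14) and 4.18-fold higher than in Naive cells (log2 2.06 ± 0.0705 SE, adjusted p = 3.17e-17). In Treg cells Hif1a was 1.52-fold higher than in Teff cells (log2 0.6 ± 0.0679 SE, adjusted p = 1.52e-07) and 2.35-fold higher than in Naive cells (log2 1.23 ± 0.0701 SE, adjusted p = 8.32e-13), and in Teff cells it was 1.55-fold higher than in Naive cells (log2 0.63 ± 0.0707 SE, adjusted p = 1.22e-07). Myc, which encodes a factor that raises transcription of growth, ribosome and glycolysis genes, had 21.3, 27.4 and 31.95 CPM in Anergic libraries and 101, 99.8 and 89.4 CPM in Treg libraries. It had 43.4, 41.15 and 41.6 CPM in Teff libraries and 71.4, 85.4 and 83.2 CPM in Naive libraries. Treg libraries were the highest, followed by Naive, Teff and Anergic libraries, with no overlap between any subsets. In Anergic cells Myc was 3.62-fold lower than in Treg cells (log2 -1.86 ± 0.102 SE, adjusted p = 6.76e-13), 1.57-fold lower than in Teff cells (log2 -0.65 ± 0.11 SE, adjusted p = 6.07e-05) and 2.99-fold lower than in Naive cells (log2 -1.58 ± 0.105 SE, adjusted p = 7.79e-12). In Treg cells Myc was 2.3-fold higher than in Teff cells (log2 1.2 ± 0.0968 SE, adjusted p = 5.26e-10) and 1.21-fold higher than in Naive cells (log2 0.27 ± 0.0919 SE, adjusted p = 0.0235), and in Teff cells it was 1.9-fold lower than in Naive cells (log2 -0.93 ± 0.0991 SE, adjusted p = 5.47e-08). The Treg against Naive call of Myc was lost without Naive library 1, Treg library 1 or Treg library 2 (adjusted p from 0.00399 to 0.148 over all alternatives). Anergic cells had the highest Hif1a and the lowest Myc of the 4 subsets. A gene on the opposite strand, Gm15283, overlaps 5.6% of the exons of Hif1a and had at most 6 counts in a library.

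**Figure D2:**
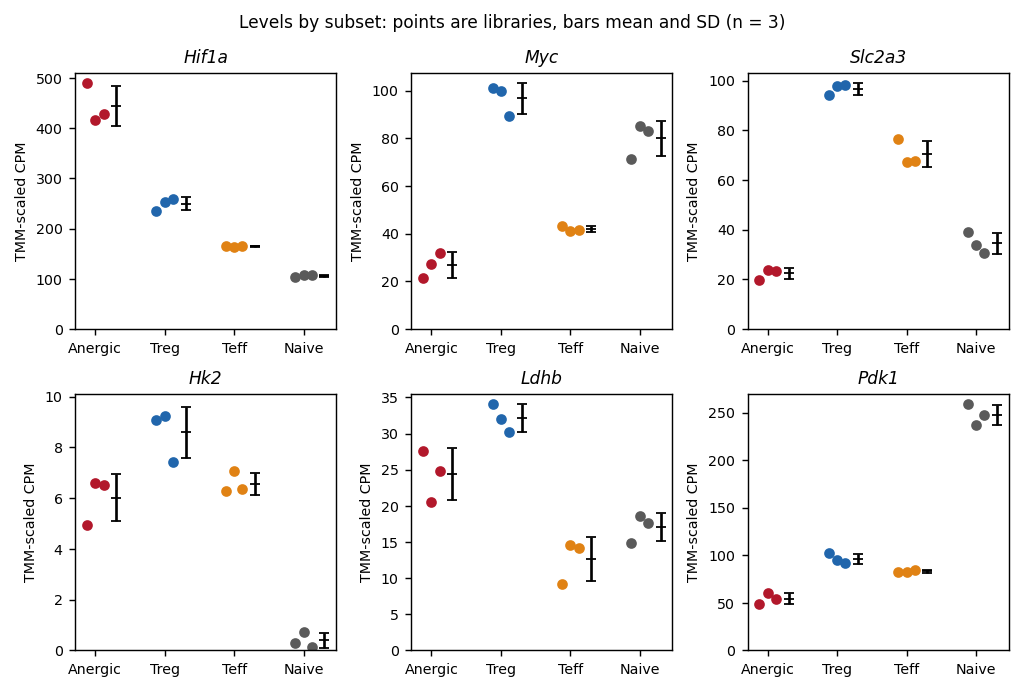
TMM-scaled CPM of Hif1a, Myc, Slc2a3, Hk2, Ldhb and Pdk1 by subset, where points are the 3 libraries of a subset and the bars beside them mean and SD. For Hif1a, Myc, Slc2a3, Ldhb and Pdk1 the points of the 4 subsets do not overlap, and for Hk2 the Naive points lie near 0.

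Of 20 known MYC targets outside glycolysis, mostly genes of ribosome production, all were tested. Among all tested genes, 15.6% were called higher and 15.3% lower in Anergic than in Treg cells. Against Teff cells these shares were 13.9% and 12.7%, and against Naive cells 25% and 21.3%. For Treg against Teff cells they were 15% and 14.1%, for Treg against Naive 19% and 13.9%, and for Teff against Naive 19.2% and 15.7%. In Anergic cells 1 of the 20 tested was higher and 16 lower than in Treg cells, 2 higher and 2 lower than in Teff cells, and 1 higher and 15 lower than in Naive cells. In Treg cells 14 were higher and 0 lower than in Teff cells and 1 higher and 5 lower than in Naive cells. Teff cells had 1 higher and 16 lower than Naive cells. Their median log2 fold change was -0.4 for Anergic against Treg, -0.54 for Anergic against Naive, 0.46 for Treg against Teff and -0.45 for Teff against Naive cells, beside 0.0, 0.006, 0.008 and 0.005 for all tested genes. Nop56, a nucleolar protein gene of ribosomal RNA processing, was in Anergic cells 1.8-fold lower than in Treg cells (adjusted p = 2.27e-10), 1.31-fold lower than in Teff cells (adjusted p = 7.08e-05) and 2.05-fold lower than in Naive cells (adjusted p = 3.09e-12). In Teff cells Nop56 was 1.56-fold lower than in Naive cells (adjusted p = 1.57e-08). Srm, spermidine synthase, was in Anergic cells 2.66-fold lower than in Treg cells (adjusted p = 6.01e-08) and 1.55-fold lower than in Teff cells (adjusted p = 0.00436). Odc1, ornithine decarboxylase, was in Anergic cells 2.27-fold higher than in Naive cells (adjusted p = 1.49e-10). In Treg cells Odc1 was 1.81-fold higher than in Naive cells (adjusted p = 8.08e-08). In Teff cells Odc1 was 1.86-fold higher than in Naive cells (adjusted p = 4.19e-08). Against Naive cells Odc1 was higher in Anergic and Teff cells, where most of the targets called were lower. With scaling by total counts alone, Anergic cells had 1 target higher and 4 lower than Teff cells, and Treg cells had 4 higher and 1 lower than Naive cells, so the balance in these comparisons depended on the scaling. Among 9 tested genes of the MYC network, Mxd1, a repressor that competes with MYC for its partner MAX, was in Anergic cells 4.2-fold lower than in Treg cells (adjusted p = 2.78e-16), 1.48-fold lower than in Teff cells (adjusted p = 4.85e-06) and 1.75-fold lower than in Naive cells (adjusted p = 7.52e-09). In Treg cells Mxd1 was 2.83-fold higher than in Teff cells (adjusted p = 2.68e-14) and 2.39-fold higher than in Naive cells (adjusted p = 5.2e-13). Mxd4, another repressor of this family, was in Anergic cells 2.32-fold higher than in Naive cells (adjusted p = 3.22e-11). In Treg cells Mxd4 was 1.4-fold higher than in Teff cells (adjusted p = 4.18e-05) and 2.58-fold higher than in Naive cells (adjusted p = 5.31e-12). In Teff cells Mxd4 was 1.83-fold higher than in Naive cells (adjusted p = 1.98e-08). Over the network as a whole, 1 was higher and 1 lower in Anergic than in Treg cells, 2 higher and 1 lower than in Teff cells, and 2 higher and 1 lower than in Naive cells. In Treg cells 3 were higher and 1 lower than in Teff cells and 4 higher and 0 lower than in Naive cells, and in Teff cells 2 were higher and 1 lower than in Naive cells. With scaling by total counts alone, Anergic cells had 0 higher and 3 lower than Treg cells and 0 higher and 1 lower than Teff cells, so the balance against Teff cells turned round.

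Known HIF-1 targets outside glycolysis had calls in both directions in each comparison. In Anergic cells 1 of the 13 tested was higher and 4 lower than in Treg cells, 4 higher and 1 lower than in Teff cells, and 3 higher and 5 lower than in Naive cells. In Treg cells 7 were higher and 3 lower than in Teff cells and 3 higher and 2 lower than in Naive cells. Teff cells had 2 higher and 5 lower than Naive cells. Among all tested genes, 15.6% were called higher and 15.3% lower in Anergic than in Treg cells. Against Teff cells these shares were 13.9% and 12.7%, and against Naive cells 25% and 21.3%. For Treg against Teff cells they were 15% and 14.1%, for Treg against Naive 19% and 13.9%, and for Teff against Naive 19.2% and 15.7%. P4ha1, a collagen prolyl hydroxylase subunit, was in Anergic cells 3.33-fold lower than in Treg cells (adjusted p = 1.52e-10) and 1.95-fold lower than in Naive cells (adjusted p = 2.97e-06). In Treg cells P4ha1 was 3.22-fold higher than in Teff cells (adjusted p = 2.04e-10) and 1.71-fold higher than in Naive cells (adjusted p = 1.68e-05). In Teff cells P4ha1 was 1.89-fold lower than in Naive cells (adjusted p = 8.54e-06). Ndrg1, a gene induced by low oxygen and by differentiation, was in Anergic cells 3.72-fold lower than in Treg cells (adjusted p = 1.91e-07) and 3.14-fold lower than in Naive cells (adjusted p = 1.3e-06). In Treg cells Ndrg1 was 5.53-fold higher than in Teff cells (adjusted p = 7.15e-09). In Teff cells Ndrg1 was 4.68-fold lower than in Naive cells (adjusted p = 5.58e-08). Ero1l, an oxidase of protein folding in the endoplasmic reticulum, was in Anergic cells 2.27-fold lower than in Teff cells (adjusted p = 8.89e-08). In Treg cells Ero1l was 2.35-fold lower than in Teff cells (adjusted p = 3.28e-08). In Teff cells Ero1l was 2.35-fold higher than in Naive cells (adjusted p = 4.33e-08). Fam162a, a mitochondrial protein gene, was in Anergic cells 1.68-fold higher than in Teff cells (adjusted p = 0.000201) and 1.59-fold higher than in Naive cells (adjusted p = 0.000344). Stc2, a secreted glycoprotein gene, averaged 6.05 CPM in Anergic cells, 0.222 CPM in Treg cells, 2 CPM in Teff cells and 0.129 CPM in Naive cells. It was 24.9-fold higher in Anergic than in Treg cells (adjusted p = 3.66e-08) and 39.9-fold higher than in Naive cells (adjusted p = 1.7e-08). The size of these folds rests on low levels in Treg and Naive cells. Of these named targets, P4ha1 and Ndrg1 were lower and Fam162a and Stc2 higher in Anergic than in Naive cells. The part of HIF-1 in these differences was not tested.

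Genes that regulate or partner HIF-1 were counted next. In Anergic cells 4 of the 13 tested were higher and 0 lower than in Treg cells, 4 higher and 1 lower than in Teff cells, and 3 higher and 2 lower than in Naive cells. In Treg cells 1 was higher and 2 lower than in Teff cells and 3 higher and 1 lower than in Naive cells. Teff cells had 4 higher and 3 lower than Naive cells. With scaling by total counts alone, Anergic cells had 2 higher and 2 lower than Treg cells, and likewise 2 higher and 2 lower than Teff cells. With TMM, 15.6% of all tested genes were called higher and 15.3% lower in Anergic than in Treg cells. Against Teff cells these shares were 13.9% and 12.7%, and against Naive cells 25% and 21.3%. For Treg against Teff cells they were 15% and 14.1%, for Treg against Naive 19% and 13.9%, and for Teff against Naive 19.2% and 15.7%. Egln3, a prolyl hydroxylase that marks HIF alpha subunits for degradation, was in Anergic cells 1.92-fold higher than in Treg cells (adjusted p = 0.000446), 1.64-fold higher than in Teff cells (adjusted p = 0.00636) and 8.86-fold higher than in Naive cells (adjusted p = 3.19e-10). Epas1, which encodes the related subunit HIF-2 alpha, was in Anergic cells 5.16-fold higher than in Treg cells (adjusted p = 6.14e-07). In Treg cells Epas1 was 7.04-fold lower than in Teff cells (adjusted p = 1.92e-08) and 8.88-fold lower than in Naive cells (adjusted p = 1.75e-09). Epas1 averaged 15.8 ± 8.09 CPM in Anergic cells, 3.055 ± 0.695 CPM in Treg cells, 21.3 ± 1.15 CPM in Teff cells and 26.85 ± 1.78 CPM in Naive cells (SD, n = 3 each). Its order differed from that of Hif1a, with the lowest level in Treg cells.

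**Figure D3:**
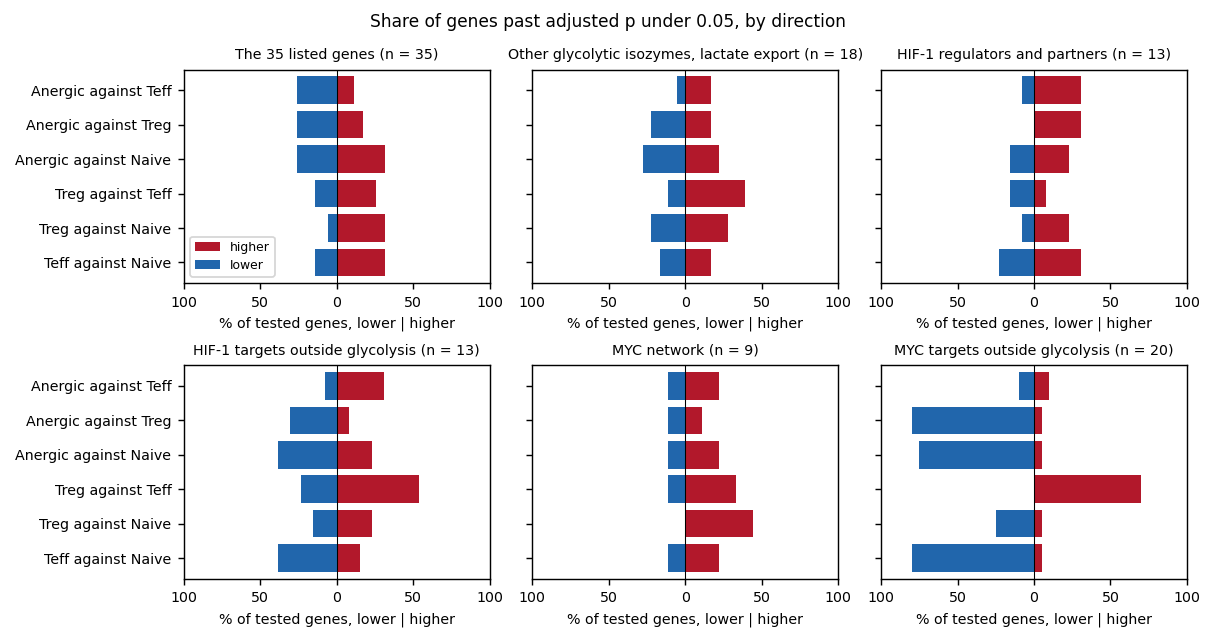
Bars give the percentage of tested genes called higher (red, to the right) and lower (blue, to the left) in the subset named before "against", for the 35 genes and 5 related gene lists in the 6 comparisons. Among the lists drawn, which leave out the cell cycle genes, the MYC targets show the most one-sided bars. Of these targets, 16 of 20 were lower in Anergic than in Treg cells and 14 of 20 higher in Treg than in Teff cells. The 35 genes have calls in both directions throughout. All lists were chosen with earlier results of these data known.

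Glucose uptake genes separated the subsets mainly through Slc2a3. Slc2a3, which encodes the glucose transporter GLUT3, had 19.8, 23.8 and 23.6 CPM in Anergic libraries and 94, 97.7 and 98.3 CPM in Treg libraries. It had 76.5, 67.3 and 67.4 CPM in Teff libraries and 39, 33.7 and 30.8 CPM in Naive libraries. Treg libraries were the highest and Anergic libraries the lowest, with Teff and Naive libraries between and no overlap. In Anergic cells Slc2a3 was 4.32-fold lower than in Treg cells (log2 -2.11 ± 0.091 SE, adjusted p = 9.09e-15), 3.15-fold lower than in Teff cells (log2 -1.66 ± 0.0931 SE, adjusted p = 1.07e-12) and 1.55-fold lower than in Naive cells (log2 -0.63 ± 0.101 SE, adjusted p = 1.61e-05). In Treg cells Slc2a3 was 1.37-fold higher than in Teff cells (log2 0.45 ± 0.0798 SE, adjusted p = 8.19e-05) and 2.79-fold higher than in Naive cells (log2 1.48 ± 0.0871 SE, adjusted p = 1.39e-12), and in Teff cells it was 2.04-fold higher than in Naive cells (log2 1.03 ± 0.0892 SE, adjusted p = 1.65e-09). Slc2a1, which encodes GLUT1, had 23.4, 22.4 and 23.6 CPM in Anergic libraries and 41.1, 35.2 and 34.9 CPM in Treg libraries. It had 32.6, 29.75 and 35.6 CPM in Teff libraries and 28.5, 31.1 and 29.4 CPM in Naive libraries. Anergic libraries lay below all others, while Teff libraries overlapped both Treg and Naive libraries. In Anergic cells Slc2a1 was 1.61-fold lower than in Treg cells (log2 -0.68 ± 0.0973 SE, adjusted p = 5.32e-06), 1.41-fold lower than in Teff cells (log2 -0.5 ± 0.0991 SE, adjusted p = 0.000441) and 1.29-fold lower than in Naive cells (log2 -0.36 ± 0.101 SE, adjusted p = 0.00505). In Treg cells Slc2a1 was 1.25-fold higher than in Naive cells (log2 0.32 ± 0.0957 SE, adjusted p = 0.011). The Treg against Naive call of Slc2a1 was lost without Treg library 1 (adjusted p from 0.00566 to 0.0965 over all alternatives). Per kilobase of merged exons, Slc2a3 made up 31.9% ± 2.56 in Anergic cells, 55.8% ± 2.88 in Treg cells, 51.1% ± 2.86 in Teff cells and 35.9% ± 3.38 in Naive cells (SD, n = 3 each) of the summed CPM of both transporters. Its share was highest in Treg and Teff cells, which overlapped each other, and lower in Naive and Anergic cells.

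Hexokinase genes, whose products trap glucose in the cell by phosphorylation, differed most between Naive cells and the rest. Hk2, the inducible hexokinase, had 4.94, 6.575 and 6.52 CPM in Anergic libraries and 9.095, 9.25 and 7.41 CPM in Treg libraries. It had 6.26, 7.06 and 6.375 CPM in Teff libraries and 0.276, 0.7435 and 0.152 CPM in Naive libraries. Anergic, Treg and Teff libraries held 42 to 90 counts of Hk2, against 2, 6 and 1 in Naive libraries, so the size of the fold rests on few reads. In Anergic cells Hk2 was 14.2-fold higher than in Naive cells (log2 3.82 ± 0.367 SE, adjusted p = 5.76e-09), and in Treg cells it was 20.2-fold higher than in Naive cells (log2 4.34 ± 0.347 SE, adjusted p = 3.87e-10), and in Teff cells it was 15.5-fold higher than in Naive cells (log2 3.95 ± 0.362 SE, adjusted p = 4.22e-09). Treg libraries lay above Anergic and Teff libraries, but neither difference was called (adjusted p = 0.0717 against Anergic and 0.19 against Teff cells). Hk1, the constitutive hexokinase, had 184, 193 and 194 CPM in Anergic libraries and 148, 150.4 and 162 CPM in Treg libraries. It had 159.7, 170.4 and 166 CPM in Teff libraries and 129, 124 and 133 CPM in Naive libraries. Anergic libraries were the highest and Naive libraries the lowest, and Treg and Teff libraries overlapped. In Anergic cells Hk1 was 1.24-fold higher than in Treg cells (log2 0.31 ± 0.0616 SE, adjusted p = 0.000315), 1.15-fold higher than in Teff cells (log2 0.2 ± 0.0615 SE, adjusted p = 0.0155) and 1.48-fold higher than in Naive cells (log2 0.56 ± 0.0627 SE, adjusted p = 6.54e-08). In Treg cells Hk1 was 1.19-fold higher than in Naive cells (log2 0.25 ± 0.063 SE, adjusted p = 0.00284), and in Teff cells it was 1.28-fold higher than in Naive cells (log2 0.36 ± 0.0629 SE, adjusted p = 6.54e-05). The Anergic against Treg call of Hk1 was lost with scaling by total counts alone (adjusted p from 7.91e-06 to 0.0599 over all alternatives). The Anergic against Teff call of Hk1 was lost without Anergic library 2, Anergic library 3 or Teff library 1, with no filter on low counts and with scaling by total counts alone (adjusted p from 0.00464 to 0.324 over all alternatives). Per kilobase, Hk2 was 4.305% ± 0.53 in Anergic cells, 7.43% ± 1.12 in Treg cells, 5.37% ± 0.205 in Teff cells and 0.439% ± 0.363 in Naive cells (SD, n = 3 each) of the hexokinase sum, so Hk1 was the larger part in every subset.

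**Figure D4:**
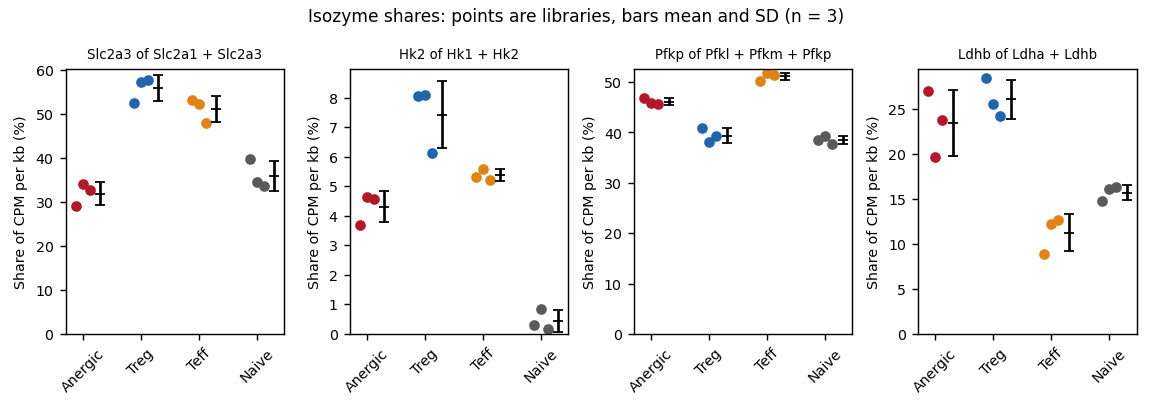
Share of 1 isozyme in the summed CPM per kilobase of its step, in %, for Slc2a3, Hk2, Pfkp and Ldhb, with the 3 libraries of each subset as points and mean and SD as bars. The Ldhb share lies at 19.7% or more in all Anergic and Treg libraries and at 16.3% or less in all Teff and Naive libraries, and the Hk2 share is at most 0.8495% in Naive libraries. These percentages use merged exon lengths and would differ with the length of the longest transcript.

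Among the genes of the phosphofructokinase and aldolase steps, Pfkp and Aldoa were high in Anergic and Teff cells and low in Treg cells. Pfkp, the platelet-type subunit of phosphofructokinase, had 152, 141 and 145 CPM in Anergic libraries and 106, 98.2 and 99.35 CPM in Treg libraries. It had 166, 160.1 and 163 CPM in Teff libraries and 113, 108 and 105 CPM in Naive libraries. Anergic and Teff libraries lay above all Treg and Naive libraries, which overlapped. In Anergic cells Pfkp was 1.44-fold higher than in Treg cells (log2 0.53 ± 0.062 SE, adjusted p = 3.14e-07) and 1.34-fold higher than in Naive cells (log2 0.42 ± 0.0624 SE, adjusted p = 4.91e-06). In Treg cells Pfkp was 1.61-fold lower than in Teff cells (log2 -0.69 ± 0.0618 SE, adjusted p = 3.36e-09), and in Teff cells it was 1.5-fold higher than in Naive cells (log2 0.58 ± 0.0622 SE, adjusted p = 5.29e-08). Pfkl, the liver-type subunit, had 60.1, 62.3 and 57.1 CPM in Anergic libraries and 54, 55.9 and 55.1 CPM in Treg libraries. It had 59.8, 50.2 and 54.1 CPM in Teff libraries and 63, 56.3 and 57.7 CPM in Naive libraries. Pfkm, the muscle-type subunit, had 12.8, 10.1 and 14.6 CPM in Anergic libraries and 11.2, 11.9 and 10.7 CPM in Treg libraries. It had 11, 12.15 and 11.35 CPM in Teff libraries and 13.5, 13.8 and 14.4 CPM in Naive libraries. Libraries of Pfkl and of Pfkm overlapped between most subsets and neither gene was called. Pfkp accounted for 46.1% ± 0.684 in Anergic cells, 39.4% ± 1.41 in Treg cells, 51.2% ± 0.743 in Teff cells and 38.5% ± 0.724 in Naive cells (SD, n = 3 each) of the summed CPM per kilobase of the 3 subunits. Pfkfb3, which makes the sugar phosphate that activates phosphofructokinase, had 60.3, 65.2 and 54.8 CPM in Anergic libraries and 45.1, 41.3 and 40.4 CPM in Treg libraries. It had 49.5, 50.7 and 49.5 CPM in Teff libraries and 45.8, 41.8 and 40.2 CPM in Naive libraries. Anergic libraries were the highest, Teff libraries next, and Treg and Naive libraries overlapped below them. In Anergic cells Pfkfb3 was 1.42-fold higher than in Treg cells (log2 0.51 ± 0.0801 SE, adjusted p = 2.1e-05), 1.21-fold higher than in Teff cells (log2 0.27 ± 0.0793 SE, adjusted p = 0.0124) and 1.41-fold higher than in Naive cells (log2 0.5 ± 0.0816 SE, adjusted p = 2e-05). In Treg cells Pfkfb3 was 1.18-fold lower than in Teff cells (log2 -0.24 ± 0.0814 SE, adjusted p = 0.0306), and in Teff cells it was 1.17-fold higher than in Naive cells (log2 0.23 ± 0.0829 SE, adjusted p = 0.0357). The Anergic against Teff call of Pfkfb3 was lost without Anergic library 2 and with scaling by total counts alone (adjusted p from 0.00508 to 0.224 over all alternatives). The Treg against Teff call of Pfkfb3 was lost without Teff library 2, Teff library 3, Treg library 2 or Treg library 3 and with scaling by total counts alone (adjusted p from 0.0166 to 0.156 over all alternatives). The Teff against Naive call of Pfkfb3 was lost without Naive library 2, Naive library 3, Teff library 1, Teff library 2 or Teff library 3, with no filter on low counts and with DESeq2 (adjusted p from 0.0206 to 0.13 over all alternatives).

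Aldoa, the main aldolase, which splits fructose bisphosphate into triose phosphates, had 241, 219 and 244.5 CPM in Anergic libraries and 163, 162 and 155 CPM in Treg libraries. It had 220.0, 256 and 239 CPM in Teff libraries and 184, 209 and 193 CPM in Naive libraries. Treg libraries lay below all others and Naive libraries below Anergic and Teff libraries, which overlapped. In Anergic cells Aldoa was 1.47-fold higher than in Treg cells (log2 0.55 ± 0.0701 SE, adjusted p = 1.03e-06) and 1.2-fold higher than in Naive cells (log2 0.26 ± 0.07 SE, adjusted p = 0.00346). In Treg cells Aldoa was 1.49-fold lower than in Teff cells (log2 -0.57 ± 0.0701 SE, adjusted p = 5.39e-07) and 1.22-fold lower than in Naive cells (log2 -0.29 ± 0.0707 SE, adjusted p = 0.00235), and in Teff cells it was 1.22-fold higher than in Naive cells (log2 0.28 ± 0.0699 SE, adjusted p = 0.00249). Aldoc, another aldolase, had 2.47, 1.41 and 1.46 CPM in Anergic libraries and 2.83, 2.41 and 3.41 CPM in Treg libraries. It had 0.812, 1.49 and 0.892 CPM in Teff libraries and 1.24, 1.115 and 0.607 CPM in Naive libraries. Treg libraries lay above all Teff and Naive libraries, and overlapped Anergic libraries. In Treg cells Aldoc was 2.7-fold higher than in Teff cells (log2 1.43 ± 0.387 SE, adjusted p = 0.00626) and 2.86-fold higher than in Naive cells (log2 1.52 ± 0.399 SE, adjusted p = 0.00458). Aldoc had 4 to 29 counts per library, and per kilobase it was 0.669% ± 0.205 in Anergic cells, 1.59% ± 0.313 in Treg cells, 0.392% ± 0.107 in Teff cells and 0.45% ± 0.16 in Naive cells (SD, n = 3 each) of the aldolase sum. Treg cells were lowest in Aldoa and highest in Aldoc, though not called against Anergic cells for Aldoc. Gpi1, the isomerase that precedes phosphofructokinase, was 1.19-fold higher in Anergic than in Naive cells (log2 fold change 0.25 ± 0.0644 SE, adjusted p = 0.00228), 1.16-fold higher in Treg than in Naive cells (log2 fold change 0.21 ± 0.0643 SE, adjusted p = 0.0133) and 1.16-fold higher in Teff than in Naive cells (log2 fold change 0.22 ± 0.0644 SE, adjusted p = 0.0102). Gpi1 averaged 241 ± 13.7 CPM in Anergic cells, 234 ± 7.88 CPM in Treg cells, 235 ± 12.45 CPM in Teff cells and 202 ± 6.195 CPM in Naive cells (SD, n = 3 each). The Treg against Naive call of Gpi1 was lost without Naive library 1 or Treg library 3 (adjusted p from 0.0018 to 0.0693 over all alternatives).

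Enzymes of the later steps, from triose phosphate to pyruvate, showed no common order. Tpi1 averaged 26.6 ± 1.42 CPM in Anergic cells, 21.8 ± 2.11 CPM in Treg cells, 21.9 ± 1.72 CPM in Teff cells and 14.95 ± 2.74 CPM in Naive cells (SD, n = 3 each). Tpi1, triose phosphate isomerase, was 1.78-fold higher in Anergic than in Naive cells (log2 fold change 0.84 ± 0.128 SE, adjusted p = 7.99e-06), 1.46-fold higher in Treg than in Naive cells (log2 fold change 0.55 ± 0.129 SE, adjusted p = 0.00173) and 1.47-fold higher in Teff than in Naive cells (log2 fold change 0.55 ± 0.13 SE, adjusted p = 0.00159). Gapdh, glyceraldehyde phosphate dehydrogenase, had 67.6, 56 and 58 CPM in Anergic libraries and 46.9, 48.9 and 47.15 CPM in Treg libraries. It had 57.9, 57.8 and 54.7 CPM in Teff libraries and 47.6, 43.1 and 50.8 CPM in Naive libraries. Anergic and Teff libraries overlapped and lay above all Treg and Naive libraries. In Anergic cells Gapdh was 1.27-fold higher than in Treg cells (log2 0.35 ± 0.0811 SE, adjusted p = 0.00166) and 1.29-fold higher than in Naive cells (log2 0.36 ± 0.0828 SE, adjusted p = 0.000816). In Treg cells Gapdh was 1.19-fold lower than in Teff cells (log2 -0.25 ± 0.0816 SE, adjusted p = 0.0206), and in Teff cells it was 1.21-fold higher than in Naive cells (log2 0.27 ± 0.0832 SE, adjusted p = 0.0132). The Anergic against Treg call of Gapdh was lost with scaling by total counts alone (adjusted p from 0.000618 to 0.088 over all alternatives). The Treg against Teff call of Gapdh was lost without Teff library 2, Treg library 1 or Treg library 3 and with scaling by total counts alone (adjusted p from 0.00842 to 0.0964 over all alternatives). The Teff against Naive call of Gapdh was lost without Naive library 2 (adjusted p from 0.00577 to 0.0971 over all alternatives). Sequence limits the level of Gapdh: 82.5% of its stretches of 50 bases also occur in other annotated genes, and reads may have been split among them or dropped.

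Eno1, enolase 1, had 100.2, 116 and 121 CPM in Anergic libraries and 151, 158 and 167 CPM in Treg libraries. It had 129, 139 and 132 CPM in Teff libraries and 158, 188 and 179.7 CPM in Naive libraries. Naive and Treg libraries overlapped at the top, Teff libraries lay below them, and Anergic libraries lay below all others. In Anergic cells Eno1 was 1.41-fold lower than in Treg cells (log2 -0.5 ± 0.0767 SE, adjusted p = 1.57e-05), 1.19-fold lower than in Teff cells (log2 -0.25 ± 0.0774 SE, adjusted p = 0.0187) and 1.56-fold lower than in Naive cells (log2 -0.64 ± 0.077 SE, adjusted p = 2.11e-07). In Treg cells Eno1 was 1.19-fold higher than in Teff cells (log2 0.25 ± 0.0759 SE, adjusted p = 0.0146), and in Teff cells it was 1.32-fold lower than in Naive cells (log2 -0.4 ± 0.0762 SE, adjusted p = 0.000211). The Anergic against Teff call of Eno1 was lost without Anergic library 1 or Teff library 2 (adjusted p from 0.00166 to 0.102 over all alternatives). The Treg against Teff call of Eno1 was lost without Teff library 1, Teff library 3 or Treg library 3 (adjusted p from 0.00117 to 0.0903 over all alternatives). Its neighbours in the chain differed. Pgk1, phosphoglycerate kinase, was 1.26-fold higher in Anergic than in Naive cells (log2 fold change 0.34 ± 0.087 SE, adjusted p = 0.00256) and 1.29-fold higher in Teff than in Naive cells (log2 fold change 0.36 ± 0.0868 SE, adjusted p = 0.00186). Pgk1 averaged 44.2 ± 1.54 CPM in Anergic cells, 39.4 ± 2.63 CPM in Treg cells, 45 ± 4.37 CPM in Teff cells and 35 ± 0.0569 CPM in Naive cells (SD, n = 3 each). Pgam1, phosphoglycerate mutase, was 1.46-fold lower in Anergic than in Teff cells (log2 fold change -0.55 ± 0.158 SE, adjusted p = 0.0108) and 1.72-fold lower in Treg than in Teff cells (log2 fold change -0.78 ± 0.16 SE, adjusted p = 0.0005). Pgam1 averaged 9.49 ± 1.42 CPM in Anergic cells, 8.14 ± 1.04 CPM in Treg cells, 13.9 ± 0.484 CPM in Teff cells and 10.8 ± 1.64 CPM in Naive cells (SD, n = 3 each). The Anergic against Teff call of Pgam1 was lost without Anergic library 3 and without the abundant entries and Anergic library 3 (adjusted p from 0.00626 to 0.055 over all alternatives). Pkm, pyruvate kinase, was called in no comparison and ran from 316 to 399 CPM over the 12 libraries. Of the 50-base stretches of these genes, 72.2% of Eno1, 68% of Pgk1, 41.5% of Pgam1 and 34.4% of Pkm also occur in other annotated genes, so their levels are uncertain.

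Lactate dehydrogenase genes differed in their balance. Ldhb, the subunit that predominates in oxidative tissues such as heart, had 27.6, 20.55 and 24.9 CPM in Anergic libraries and 34.2, 32.05 and 30.2 CPM in Treg libraries. It had 9.16, 14.6 and 14.15 CPM in Teff libraries and 14.9, 18.6 and 17.6 CPM in Naive libraries. Treg libraries were the highest, then Anergic, Naive and Teff libraries, with no overlap. In Anergic cells Ldhb was 1.32-fold lower than in Treg cells (log2 -0.4 ± 0.133 SE, adjusted p = 0.0234), 1.93-fold higher than in Teff cells (log2 0.95 ± 0.15 SE, adjusted p = 2.53e-05) and 1.43-fold higher than in Naive cells (log2 0.51 ± 0.146 SE, adjusted p = 0.00559). In Treg cells Ldhb was 2.55-fold higher than in Teff cells (log2 1.35 ± 0.145 SE, adjusted p = 6.75e-08) and 1.89-fold higher than in Naive cells (log2 0.92 ± 0.141 SE, adjusted p = 1.41e-05), and in Teff cells it was 1.35-fold lower than in Naive cells (log2 -0.44 ± 0.158 SE, adjusted p = 0.0348). The Anergic against Treg call of Ldhb was lost without Anergic library 2, Treg library 1 or Treg library 2 (adjusted p from 0.00367 to 0.143 over all alternatives). The Teff against Naive call of Ldhb was lost without Naive library 2, Naive library 3 or Teff library 1, with scaling by total counts alone and in a fit of only these subsets (adjusted p from 0.0174 to 0.255 over all alternatives). Ldha, the subunit that predominates in glycolytic tissues such as skeletal muscle, had 158, 177 and 168.5 CPM in Anergic libraries and 181, 197 and 199 CPM in Treg libraries. It had 199, 221 and 205 CPM in Teff libraries and 182, 204.5 and 191 CPM in Naive libraries. Anergic libraries lay below all others, and Treg, Naive and Teff libraries overlapped in part. In Anergic cells Ldha was 1.15-fold lower than in Treg cells (log2 -0.2 ± 0.0684 SE, adjusted p = 0.0306), 1.24-fold lower than in Teff cells (log2 -0.31 ± 0.0684 SE, adjusted p = 0.00109) and 1.15-fold lower than in Naive cells (log2 -0.2 ± 0.0688 SE, adjusted p = 0.0222). The Anergic against Treg call of Ldha was lost without Anergic library 1, Anergic library 3, Treg library 2 or Treg library 3 and without the abundant entries and Anergic library 3 (adjusted p from 0.00226 to 0.14 over all alternatives). The Anergic against Naive call of Ldha was lost without Anergic library 1 or Naive library 2 (adjusted p from 0.0031 to 0.127 over all alternatives). Per kilobase, Ldhb was 23.5% ± 3.64 in Anergic cells, 26.1% ± 2.16 in Treg cells, 11.25% ± 2.09 in Teff cells and 15.7% ± 0.844 in Naive cells (SD, n = 3 each) of the sum of both subunits. The share in every Anergic and Treg library was above that in every Teff and Naive library. The percentages rest on merged exon lengths of 1570 bases for Ldhb and 3310 bases for Ldha. The longest transcripts have 1304 and 1815 bases, and the percentages would differ with these lengths. Other annotated genes hold 27% of the 50-base stretches of Ldhb and 16.6% of those of Ldha.

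Of the pyruvate genes, Pdk1 changed most. Pdk1, the kinase that inhibits pyruvate dehydrogenase, had 48.8, 60.2 and 54.3 CPM in Anergic libraries and 102, 94.9 and 92.1 CPM in Treg libraries. It had 82.2, 82.8 and 84.9 CPM in Teff libraries and 259, 238 and 247 CPM in Naive libraries. Naive libraries were far above the rest, Treg libraries lay above Teff libraries, and Anergic libraries were the lowest, with no overlap. In Anergic cells Pdk1 was 1.77-fold lower than in Treg cells (log2 -0.82 ± 0.0754 SE, adjusted p = 5.26e-09), 1.53-fold lower than in Teff cells (log2 -0.61 ± 0.0763 SE, adjusted p = 9.4e-07) and 4.55-fold lower than in Naive cells (log2 -2.19 ± 0.074 SE, adjusted p = 2.71e-17). In Treg cells Pdk1 was 1.16-fold higher than in Teff cells (log2 0.21 ± 0.0727 SE, adjusted p = 0.0306) and 2.57-fold lower than in Naive cells (log2 -1.36 ± 0.07 SE, adjusted p = 1.18e-13), and in Teff cells it was 2.97-fold lower than in Naive cells (log2 -1.57 ± 0.0711 SE, adjusted p = 1.21e-14). The Treg against Teff call of Pdk1 was lost without Teff library 1, Teff library 2, Teff library 3, Treg library 1 or Treg library 2, with no filter on low counts and with DESeq2 (adjusted p from 0.0176 to 0.168 over all alternatives). Pdha1, the catalytic alpha subunit of pyruvate dehydrogenase, had 98.1, 111 and 112 CPM in Anergic libraries and 139, 130.0 and 137 CPM in Treg libraries. It had 103, 112.5 and 114 CPM in Teff libraries and 129, 137 and 144 CPM in Naive libraries. Treg and Naive libraries lay above all Anergic and Teff libraries. In Anergic cells Pdha1 was 1.26-fold lower than in Treg cells (log2 -0.34 ± 0.0695 SE, adjusted p = 0.000482) and 1.28-fold lower than in Naive cells (log2 -0.35 ± 0.0701 SE, adjusted p = 0.000218). In Treg cells Pdha1 was 1.23-fold higher than in Teff cells (log2 0.3 ± 0.0694 SE, adjusted p = 0.00147), and in Teff cells it was 1.25-fold lower than in Naive cells (log2 -0.32 ± 0.07 SE, adjusted p = 0.000898). Map3k15 lies on the opposite strand over 16.1% of the exons of Pdha1 and averaged at most 2.02 CPM in a subset.

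The other pyruvate genes were called in no comparison. Pdhb, the beta subunit of pyruvate dehydrogenase, ran from 31.3 to 43.8 CPM over the 12 libraries. Dlat, the acetyltransferase of the complex, ran from 20.9 to 28.1 CPM and Dld, its lipoamide dehydrogenase, from 30.7 to 41.9 CPM. For the subunits of the mitochondrial pyruvate carrier the range was 6.59 to 12.9 CPM for Mpc1 and 13.1 to 20.9 CPM for Mpc2. In none of these genes did 1 subset stand apart from all others. With Pdk1 included, the 7 pyruvate genes summed to 288 ± 21.9 CPM in Anergic cells, 357 ± 12.7 CPM in Treg cells, 318 ± 13.4 CPM in Teff cells and 511 ± 6 CPM in Naive cells (SD, n = 3 each). The sum of the 19 glycolysis genes was 1829 ± 42.3 CPM in Anergic cells, 1751 ± 21.6 CPM in Treg cells, 1869 ± 72 CPM in Teff cells and 1663 ± 54.1 CPM in Naive cells (SD, n = 3 each).

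In the pentose phosphate pathway only the transketolase gene was called in more than 2 comparisons. Tkt, transketolase, which links the pathway back to glycolysis, had 83.2, 109 and 101 CPM in Anergic libraries and 149.7, 139 and 142 CPM in Treg libraries. It had 113, 119 and 119 CPM in Teff libraries and 103, 111 and 124 CPM in Naive libraries. Treg libraries lay above all others, and Anergic libraries lay below all Teff libraries but overlapped Naive libraries. In Anergic cells Tkt was 1.47-fold lower than in Treg cells (log2 -0.55 ± 0.0828 SE, adjusted p = 1.05e-05) and 1.2-fold lower than in Teff cells (log2 -0.26 ± 0.0838 SE, adjusted p = 0.0242). In Treg cells Tkt was 1.23-fold higher than in Teff cells (log2 0.3 ± 0.0819 SE, adjusted p = 0.00731) and 1.28-fold higher than in Naive cells (log2 0.35 ± 0.0826 SE, adjusted p = 0.00173). The Anergic against Teff call of Tkt was lost without Anergic library 1, Teff library 2 or Teff library 3 (adjusted p from 0.00346 to 0.153 over all alternatives). Taldo1, transaldolase, was 1.21-fold lower in Anergic than in Teff cells (log2 fold change -0.28 ± 0.0732 SE, adjusted p = 0.00546) and 1.14-fold lower in Anergic than in Naive cells (log2 fold change -0.19 ± 0.0741 SE, adjusted p = 0.0385). Taldo1 averaged 78.9 ± 4.16 CPM in Anergic cells, 87.9 ± 1.315 CPM in Treg cells, 95.85 ± 7.11 CPM in Teff cells and 90.1 ± 7.38 CPM in Naive cells (SD, n = 3 each). The Anergic against Naive call of Taldo1 was lost without Anergic library 1, Anergic library 3, Naive library 2, Naive library 3, Treg library 1, Treg library 2 or Treg library 3, with no filter on low counts, without the abundant entries and Anergic library 3, in a fit of only these subsets and with DESeq2 (adjusted p from 0.0126 to 0.178 over all alternatives). Its Anergic and Naive libraries overlapped. Pgd, which makes NADPH, was 1.2-fold lower in Anergic than in Naive cells (log2 fold change -0.27 ± 0.0966 SE, adjusted p = 0.026), with means of 30.6 ± 1.17 CPM in Anergic and 36.9 ± 3.15 CPM in Naive cells (SD, n = 3 each). The Anergic against Naive call of Pgd was lost without Anergic library 1, Anergic library 2, Naive library 2 or Naive library 3 and with DESeq2 (adjusted p from 0.0113 to 0.102 over all alternatives).

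The other genes of the pathway were called in no comparison. G6pdx, the entry enzyme that makes NADPH, ran from 22.6 to 32.7 CPM over the 12 libraries, and Pgls, the lactonase after it, from 17.5 to 25.8 CPM. Rpia, which makes ribose phosphate, ran from 23.7 to 32.8 CPM and Rpe, the matching epimerase, from 19.8 to 26.15 CPM. The 7 pentose phosphate genes summed to 306.5 ± 19.2 CPM in Anergic cells, 368 ± 10.3 CPM in Treg cells, 345 ± 12.5 CPM in Teff cells and 333 ± 25.4 CPM in Naive cells (SD, n = 3 each).

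**Figure D5:**
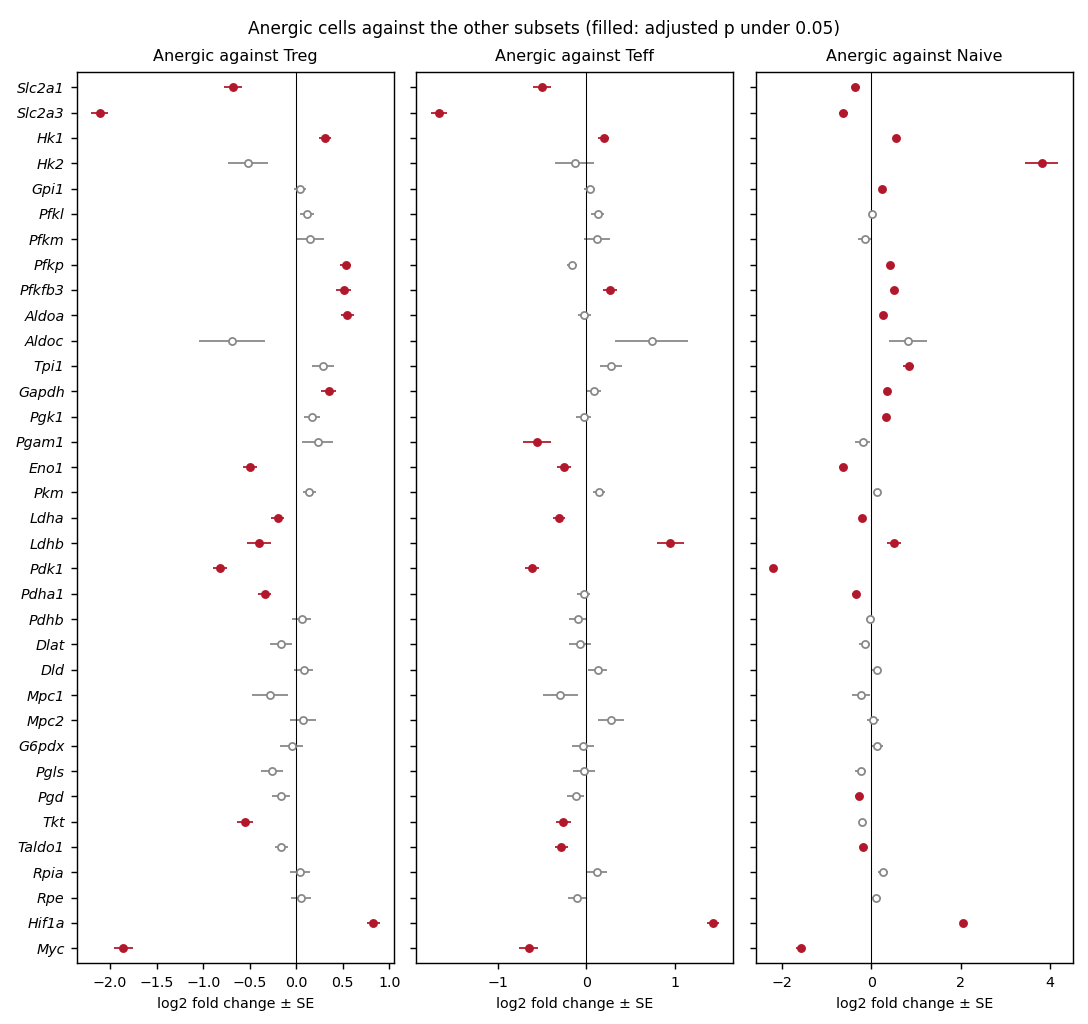
Log2 fold change (point) and standard error (bar) of each of the 35 genes for Anergic against Treg, Teff and Naive cells, with filled red points where the adjusted p is under 0.05 and values right of 0 higher in Anergic cells. With a call in all 3 panels, Hif1a, Hk1 and Pfkfb3 lie right of 0 and Slc2a1, Slc2a3, Eno1, Ldha, Pdk1 and Myc left of 0. Hk2 stands far right against Naive cells.

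Other genes of the pathways were counted from lists of related isozymes and regulators. The first list held other glycolytic isozymes and lactate export. In Anergic cells 3 of the 18 tested were higher and 4 lower than in Treg cells, 3 higher and 1 lower than in Teff cells, and 4 higher and 5 lower than in Naive cells. In Treg cells 7 were higher and 2 lower than in Teff cells and 5 higher and 4 lower than in Naive cells. Teff cells had 3 higher and 3 lower than Naive cells. Among all tested genes, 15.6% were called higher and 15.3% lower in Anergic than in Treg cells. Against Teff cells these shares were 13.9% and 12.7%, and against Naive cells 25% and 21.3%. For Treg against Teff cells they were 15% and 14.1%, for Treg against Naive 19% and 13.9%, and for Teff against Naive 19.2% and 15.7%. Adpgk, a glucokinase that uses ADP, was in Anergic cells 2.11-fold lower than in Treg cells (adjusted p = 1.52e-09) and 2.13-fold lower than in Naive cells (adjusted p = 6.56e-10). In Treg cells Adpgk was 1.73-fold higher than in Teff cells (adjusted p = 1.6e-07). In Teff cells Adpgk was 1.75-fold lower than in Naive cells (adjusted p = 1.18e-07). Eno3, the muscle enolase, was in Anergic cells 6.63-fold lower than in Treg cells (adjusted p = 1.88e-10). In Treg cells Eno3 was 4.65-fold higher than in Teff cells (adjusted p = 2.36e-09) and 3.19-fold higher than in Naive cells (adjusted p = 1.14e-07). Galm, which interconverts the forms of glucose, was in Anergic cells 1.45-fold higher than in Treg cells (adjusted p = 0.00593), 2.62-fold higher than in Teff cells (adjusted p = 2.38e-07) and 5.29-fold higher than in Naive cells (adjusted p = 7.62e-11). In Treg cells Galm was 3.64-fold higher than in Naive cells (adjusted p = 1.78e-08). In Teff cells Galm was 2.02-fold higher than in Naive cells (adjusted p = 0.000296).

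The next list held other pyruvate genes. In Anergic cells 0 of the 9 tested were higher and 2 lower than in Treg cells, 2 higher and 1 lower than in Teff cells, and 1 higher and 2 lower than in Naive cells. In Treg cells 2 were higher and 1 lower than in Teff cells and 2 higher and 1 lower than in Naive cells. Teff cells had 0 higher and 2 lower than Naive cells. Among all tested genes, 15.6% were called higher and 15.3% lower in Anergic than in Treg cells. Against Teff cells these shares were 13.9% and 12.7%, and against Naive cells 25% and 21.3%. For Treg against Teff cells they were 15% and 14.1%, for Treg against Naive 19% and 13.9%, and for Teff against Naive 19.2% and 15.7%. Me2, the mitochondrial malic enzyme, which makes pyruvate from malate, was in Anergic cells 1.7-fold lower than in Treg cells (adjusted p = 2.1e-06), 1.6-fold lower than in Teff cells (adjusted p = 1.72e-05) and 2.23-fold lower than in Naive cells (adjusted p = 1.24e-09). In Treg cells Me2 was 1.31-fold lower than in Naive cells (adjusted p = 0.0025). In Teff cells Me2 was 1.39-fold lower than in Naive cells (adjusted p = 0.000329). Pdk2, another kinase that inhibits pyruvate dehydrogenase, was in Anergic cells 2.16-fold higher than in Teff cells (adjusted p = 0.00147). In Treg cells Pdk2 was 3.15-fold higher than in Teff cells (adjusted p = 6.22e-06) and 1.78-fold higher than in Naive cells (adjusted p = 0.00524). The order of Pdk2 differed from that of Pdk1. Pdk3, a further pyruvate dehydrogenase kinase gene, was in Anergic cells 1.56-fold higher than in Naive cells (adjusted p = 0.000319). In Treg cells Pdk3 was 1.44-fold higher than in Naive cells (adjusted p = 0.00306). In both of these comparisons Pdk1 was lower. The list of other pentose phosphate genes was counted in the same way. In Anergic cells 1 of the 8 tested was higher and 0 lower than in Treg cells, 2 higher and 1 lower than in Teff cells, and 1 higher and 1 lower than in Naive cells. In Treg cells 2 were higher and 2 lower than in Teff cells and 0 higher and 0 lower than in Naive cells. Teff cells had 1 higher and 2 lower than Naive cells. H6pd, which makes NADPH in the endoplasmic reticulum, was in Anergic cells 1.49-fold lower than in Teff cells (adjusted p = 6.39e-05) and 1.28-fold lower than in Naive cells (adjusted p = 0.00463). In Treg cells H6pd was 1.27-fold lower than in Teff cells (adjusted p = 0.00722). Prps2, which makes the ribose donor of nucleotide synthesis, was in Anergic cells 1.33-fold higher than in Teff cells (adjusted p = 0.000378). In Treg cells Prps2 was 1.25-fold higher than in Teff cells (adjusted p = 0.00362). In Teff cells Prps2 was 1.29-fold lower than in Naive cells (adjusted p = 0.00104).

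Genes that control glucose uptake and growth formed a further list. In Anergic cells 1 of the 22 tested was higher and 6 lower than in Treg cells, 3 higher and 8 lower than in Teff cells, and 3 higher and 8 lower than in Naive cells. In Treg cells 5 were higher and 2 lower than in Teff cells and 3 higher and 5 lower than in Naive cells. Teff cells had 5 higher and 6 lower than Naive cells. Of all tested genes, 15.6% were called higher and 15.3% lower in Anergic than in Treg cells, 13.9% higher and 12.7% lower than in Teff cells, and 25% higher and 21.3% lower than in Naive cells. For Treg against Teff cells these shares were 15% and 14.1%, for Treg against Naive 19% and 13.9%, and for Teff against Naive 19.2% and 15.7%. Txnip, which restrains glucose uptake and rises with glucose supply, was in Anergic cells 1.75-fold lower than in Treg cells (adjusted p = 1.25e-09) and 1.98-fold lower than in Naive cells (adjusted p = 1.93e-11). Arrdc4, its relative, was in Anergic cells 6.75-fold higher than in Teff cells (adjusted p = 2.86e-08) and 20.4-fold higher than in Naive cells (adjusted p = 2.69e-10). In Treg cells Arrdc4 was 8.44-fold higher than in Teff cells (adjusted p = 2.15e-09) and 25.4-fold higher than in Naive cells (adjusted p = 7.07e-11). Pik3ip1, an inhibitor of PI3 kinase, was in Anergic cells 2.99-fold lower than in Naive cells (adjusted p = 1.09e-13). In Treg cells Pik3ip1 was 2.4-fold lower than in Naive cells (adjusted p = 7.06e-12). In Teff cells Pik3ip1 was 2.88-fold lower than in Naive cells (adjusted p = 3.72e-13). Slc7a5, a large neutral amino acid transporter, was in Treg cells 2.02-fold higher than in Teff cells (adjusted p = 1.22e-07). In Teff cells Slc7a5 was 2.31-fold lower than in Naive cells (adjusted p = 6.54e-09). The related genes Txnip and Arrdc4 differed in opposite directions between Anergic and Naive cells. Cell cycle genes, which mark dividing cells, also differed between the subsets. In Anergic cells 4 of the 18 tested were higher and 1 lower than in Treg cells, 1 higher and 10 lower than in Teff cells, and 13 higher and 1 lower than in Naive cells. In Treg cells 1 was higher and 10 lower than in Teff cells and 14 higher and 0 lower than in Naive cells. Teff cells had 15 higher and 0 lower than Naive cells. With scaling by total counts alone, Anergic cells had 3 higher and 5 lower than Treg cells, so the balance of calls turned round there. Their summed level was 777 ± 81.55 CPM in Anergic cells, 707 ± 9.53 CPM in Treg cells, 888 ± 63 CPM in Teff cells and 470.0 ± 4.28 CPM in Naive cells (SD, n = 3 each). The part of dividing cells in the levels of the 35 genes was not tested.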

How the data were processed

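Total RNA was extracted with a QIAGEN kit and made into stranded libraries with a Takara Pico kit, per the labels' protocols. The deposited values are unnormalised counts of reads per gene, which the authors made with Trimmomatic, HISAT2, SAMtools and featureCounts, per the series design text. The genome was GRCm38, per the submitters' processing notes. Neither annotation nor strand setting is given in the sources used here: reads of overlapping genes may be assigned to either, and reads of near-identical copies may be lost or split. Other annotated genes also hold 30.3% of the 50-base stretches of Pdhb, 29.6% for Mpc1 and 25.3% for Gpi1. For Rpe, Pfkp and Pdha1 this share is 19.1%, 17.1% and 16.9%. Genes on the same strand overlap 20.6% of the exons of Pgls and 15.3% of those of Pkm.

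The count table was tested with edgeR 4.0.16 in R 4.3.3 (quasi-likelihood F test, TMM scaling, filterByExpr, subset means over 12 libraries). A standard error is the absolute log2 fold change over the root of F. CPM uses TMM-scaled library sizes, and a second entry named Aldoa with 1 count was dropped. Replicates were not duplicates, with a chi-square of 2.2 to 21.5 per degree of freedom between libraries. The common biological coefficient of variation was 0.0764. Exon lengths and shared 50-base stretches came from GENCODE vM21 and promoters from RefSeq. Isozyme shares use merged exon lengths, and their percentages depend on this choice. For Hk1 the merged exons have 8532 bases and the longest transcript 4278, while for Hk2 these are 5969 and 5513. The members and lists were chosen with earlier results of these data known. Values per library are given for genes called in at least 4 comparisons or by at least 2-fold, and for isozymes of a step. From each other list, genes named are among up to 2 in each direction and comparison with the smallest adjusted p, and only calls that held in all alternatives are given. Alternatives were limma 3.58.1 (voom), DESeq2 1.42.0, other scalings and filters, fits of only the compared subsets, a replicate block, removal of 11 abundant entries and each library left out.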

Additional observations from a re-analysis of the deposited data

How the results depend on the processing

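Of 210 gene comparisons of the 35 genes, 91 were called, and 69 of these calls held in all 22 alternative settings. Among all tested genes, 26.6% to 46.2% were called per comparison. The other 22 were lost in at least 1 setting, 20 of them when 1 library was left out and 11 in other settings, 7 of them with total counts alone. None reversed, and the largest lost call had a log2 fold change of 0.55. With total counts alone, 2 genes instead of 4 were higher in Anergic than in Teff cells and 3 instead of 5 were lower in Treg than in Teff cells. The median of all genes then shifted to -0.131 for Anergic against Treg cells. The cause of these losses was not tested. Leaving out the abundant entries together with Anergic library 3 was chosen after seeing the data. Leaving out each library gave 2 to 5 genes higher in Anergic than in Teff cells, 3 to 6 lower in Treg than in Teff cells and 2 to 4 lower in Treg than in Naive cells. Same-numbered libraries of different subsets had correlations of -0.048 to 0.184 (median 0.065) and different-numbered ones of -0.199 to 0.171 (median -0.044). The median was thus higher for same-numbered pairs, though not all of these exceeded 0.1. Since the labels do not say what a number shares, the libraries were not treated as paired in the main fit. All libraries correlated best with one of their own number except Teff library 2 and Anergic library 3, which correlated best with each other. With the replicate number as a block no call of the 35 genes was lost, and Pfkp and Pkm in Anergic against Teff (adjusted p = 0.0235 and 0.0339), Pkm in Anergic against Treg (0.0371) and Tkt and Rpia in Anergic against Naive cells (0.0223 and 0.0356) were gained. Pfkp (Anergic against Teff) was also gained with the 5 CPM filter, DESeq2 size factors, total counts alone, abundant entries removed, limma voom and without Anergic library 1 (adjusted p from 0.015 to 0.0492 in these). Tkt (Anergic against Naive) was also gained with no filter, the 5 CPM filter, total counts alone, abundant entries removed, and without Anergic library 2 or Naive library 1 (0.012 to 0.0484), and Rpia there without Anergic library 3, Teff library 1, Treg library 2 or Treg library 3 and without the abundant entries and Anergic library 3 (0.0241 to 0.049). With total counts alone Hk2, Pgls, Pgd and Taldo1 were gained as lower in Anergic than in Treg cells (0.0253, 0.0217, 0.0431 and 0.00976) and Pgk1 as higher in Treg than in Naive cells (0.0452), and Hk2 also with limma voom (0.0388). Mpc2 in Anergic against Teff cells (0.0334), Pgk1 in Treg against Teff cells (0.0238), Eno1 in Treg against Naive cells (0.0394) and Pgam1 in Treg against Naive (0.0302 and 0.0399) and in Teff against Naive cells (0.0463) were gained only when 1 library was left out. The depth of 6909035 to 9527897 counts leaves Hk2 in Naive cells and Aldoc in all subsets at few reads.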
